A study of Mus musculus with 36 samples.

Results

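A set of 9 genes that are known for high expression in the striatum was examined in the anterior cingulate cortex (aCC) of female mice. Several of them have a role in the response to dopamine. The genes were Drd1, Drd2, Adora2a, Gpr6, Rgs9, Ppp1r1b, Pde10a, Rasd2 and Syndig1l. They are 9 of the 52636 genes in the table, and all 9 passed the filter on low values that left 25572 genes for testing. The genes were chosen by name, with measured values in view: earlier results had shown that 1 library, Brd1+/- vehicle replicate 6, held them at high levels. The levels in that library, and how the genes vary together over the other libraries, were used in that choice and are therefore described without a test. The differences between groups were tested on the 35 libraries that are left without it.

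RNA was sequenced from frozen punches of aCC, with 1 library per mouse. All mice were young adult females whose strain is labelled C57BL/6NTac-Brd1, either wild type (WT) or carrying 1 targeted allele of Brd1 (Brd1+/-). The allele is a germline deletion within Brd1, a gene for a bromodomain protein of histone acetyltransferase complexes, so every cell type carries it. The mice received saline (vehicle) or the tricyclic antidepressant imipramine (IMN) at 10 mg/kg and were tested for behaviour shortly before the brains were taken. Of the libraries, 18 came from WT mice (8 given vehicle and 10 IMN) and 18 from Brd1+/- mice (9 given vehicle and 9 IMN).

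Dopamine acts through G protein-coupled receptors of 2 kinds. The D1 receptor, made from Drd1, raises cyclic AMP, and the D2 receptor, made from Drd2, lowers it. In the striatum the receptors mark separate projection neurons: cells with the D1 receptor form the direct pathway, and cells with the D2 receptor, which also carry the adenosine receptor Adora2a and the orphan receptor Gpr6, form the indirect pathway. In the cortex dopamine receptors are found on some pyramidal cells and interneurons, at much lower levels than in the striatum. Downstream of the receptors, Ppp1r1b encodes DARPP-32, which inhibits a protein phosphatase once protein kinase A has phosphorylated it, Rgs9 encodes a protein that speeds up the shut-off of G protein signals, and Pde10a encodes a phosphodiesterase that breaks down cyclic nucleotides. Rasd2 encodes a small GTPase of the striatum (Rhes), and Syndig1l encodes a membrane protein enriched in the caudate and putamen.

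On build GRCm38 the genes lie on different chromosomes or far apart on the same one. Drd1 is at chromosome 13, 54051183 to 54055705, on the minus strand, and Drd2 is at chromosome 9, 49340627 to 49408177, on the plus strand. Adora2a (75316877 to 75334784, plus strand) and Gpr6 (41069977 to 41072285, minus strand) both lie on chromosome 10. Rgs9 (109225355 to 109298129, minus strand) and Ppp1r1b (98348404 to 98357796, plus strand) both lie on chromosome 11. Pde10a is at chromosome 17, 8525372 to 8986648, plus strand, Rasd2 at chromosome 8, 75213944 to 75224113, plus strand, and Syndig1l at chromosome 12, 84677277 to 84698831, minus strand.

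The bases before the start site are shown for Drd1, Drd2 and Rgs9, whose levels varied together over the libraries, and for Gpr6, whose r with each of them was negative. Each run is the 250 bases before a start of the gene in RefSeq (GRCm38.p6), written 5′ to 3′ on the strand of the gene. Capitals mark any of 6 motifs, searched on both strands: the cAMP response element TGACGTCA, its half-site TGACG, which the full element contains on each strand, the GC box GGGCGG, the CCAAT box CCAAT, the TATA box TATAAA and the Egr site GCGNGGGCG.
Drd1, chr13:54055659-54055908, minus strand: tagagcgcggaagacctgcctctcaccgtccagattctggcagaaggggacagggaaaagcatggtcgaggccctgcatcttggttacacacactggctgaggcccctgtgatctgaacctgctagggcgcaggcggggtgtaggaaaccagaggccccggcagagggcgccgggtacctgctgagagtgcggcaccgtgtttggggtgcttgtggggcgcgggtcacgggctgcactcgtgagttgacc
Drd2, chr9:49340153-49340402, plus strand: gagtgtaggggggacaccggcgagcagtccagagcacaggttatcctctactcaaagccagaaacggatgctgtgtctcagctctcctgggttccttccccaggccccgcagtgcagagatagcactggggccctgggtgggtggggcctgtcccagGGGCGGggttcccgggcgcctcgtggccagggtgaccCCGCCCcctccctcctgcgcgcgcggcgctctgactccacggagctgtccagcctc
Rgs9, chr11:109298182-109298431, minus strand: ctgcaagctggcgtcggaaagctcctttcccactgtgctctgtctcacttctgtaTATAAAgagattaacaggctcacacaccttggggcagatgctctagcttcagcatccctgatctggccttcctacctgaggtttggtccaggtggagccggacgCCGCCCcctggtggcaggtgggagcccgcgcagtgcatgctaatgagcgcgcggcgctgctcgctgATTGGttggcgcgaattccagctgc
Gpr6, chr10:41072291-41072540, minus strand: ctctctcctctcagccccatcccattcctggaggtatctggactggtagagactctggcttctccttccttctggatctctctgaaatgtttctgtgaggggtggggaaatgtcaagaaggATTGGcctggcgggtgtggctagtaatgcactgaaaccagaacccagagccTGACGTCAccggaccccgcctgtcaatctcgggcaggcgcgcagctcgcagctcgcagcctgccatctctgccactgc

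Among these 4 windows the full cAMP response element stood in that of Gpr6 alone, with its first base at position -78 from the start. The element occurs in 1.55% of the 32851 windows of the same length in the RefSeq table, and the half-site in 17.8%. Drd2 held 2 GC boxes and Rgs9 1, a motif of 32.7% of all windows. Rgs9 and Gpr6 each held a CCAAT box, found in 33.8% of windows, and Rgs9 a TATA box letter run, found in 12.4%, at -195. None of the 6 motifs was in the Drd1 window shown. The table has a second start for Drd1, whose window held 1 GC box. GC content was 64.0% for the Drd1 window shown, 68.8% for Drd2, 59.6% for Rgs9 and 58.4% for Gpr6, against a median of 52.4% over all windows. A match of letters is a description and does not show that a factor binds there.

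Several facts of the whole series bear on the values. The targeted gene was lower in the libraries labelled Brd1+/-: over both treatments Brd1 fell by 0.55 on the log2 scale (adjusted p = 3.15e-05, limma). Markers of cortical excitatory neurons were present in all 36 libraries, with Slc17a7, the vesicular glutamate transporter, at 395 to 1652 TPM in the 35 libraries and 1070 TPM in Brd1+/- vehicle replicate 6. A further 2 libraries, WT vehicle replicate 1 and WT IMN replicate 7, held the 2 highest values of the 35 for 4 of 6 markers of cortical layer 6, as given below. The values are TPM, a library's transcripts scaled to a fixed total after correction for transcript length, so levels can be compared between genes, but they hold no record of depth and no counting error can be given. In bulk tissue a lower level can come from fewer cells of a type or from less RNA per cell, and these cannot be told apart.

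In the 35 libraries the medians of the 9 genes ran from 0.585 to 64.4 TPM. Ppp1r1b was the highest, with a median of 64.4 TPM and a range of 34.3 to 240.2 TPM. Rasd2 followed at a median of 39.3 TPM (27.5 to 59.8), Pde10a at 17.7 TPM (9.52 to 31.9) and Rgs9 at 8.26 TPM (4.03 to 22.7). These are the genes for signalling proteins, and each had more transcripts than any of the receptors at its median.

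The receptors and Syndig1l were low. Drd1 had a median of 3.17 TPM, with a range of 0.909 to 11.7 TPM. Adora2a had a median of 1.37 TPM (0.799 to 2.25), Syndig1l of 1.22 TPM (0.581 to 4.24), Gpr6 of 0.776 TPM (0.341 to 2.51) and Drd2 of 0.585 TPM (0.143 to 1.96). Neighbours in this order overlapped in range. Within libraries Ppp1r1b exceeded Rasd2 in 34 of 35, Rasd2 exceeded Pde10a in 35, Pde10a exceeded Rgs9 in 33, Rgs9 exceeded Drd1 in 35 and Drd1 exceeded Adora2a in 30. The lower places were less settled: Adora2a exceeded Syndig1l in 18 of 35 libraries, Syndig1l exceeded Gpr6 in 29 and Gpr6 exceeded Drd2 in 22.

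The genes also differed in how much they varied between mice. Rasd2 varied least, with a coefficient of variation of 16.8% over the 35 libraries and a highest value 2.17 times its lowest. Adora2a had a coefficient of variation of 26.8% and Pde10a of 30.7%. Drd1 and Drd2 varied most, with 64.9% and 62.5%, and their highest values were 12.9 and 13.7 times their lowest. Ppp1r1b had 55.0%, but its spread was carried by WT vehicle replicate 1 (194 TPM) and WT IMN replicate 7 (240.2 TPM), while the Brd1+/- vehicle group without replicate 6 had 23.0% and the Brd1+/- IMN group 26.5%.

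Group by group, the D1 receptor gene Drd1 had its lowest, median and highest TPM at 1.38, 2.91 and 7.30 in WT vehicle and at 0.909, 4.56 and 7.91 in Brd1+/- vehicle without replicate 6. They were 1.26, 3.18 and 11.7 in WT IMN and 1.49, 2.50 and 8.06 in Brd1+/- IMN. All 4 groups overlapped over most of their range, and each held libraries under 2 TPM and libraries over 7 TPM.

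The D2 receptor gene Drd2 had its lowest, median and highest TPM at 0.155, 0.604 and 1.48 in WT vehicle and at 0.347, 0.744 and 1.96 in Brd1+/- vehicle without replicate 6. In WT IMN they were 0.143, 0.516 and 1.12, and in Brd1+/- IMN 0.191, 0.569 and 0.989. The groups overlapped, and the highest of the 35 values was in Brd1+/- vehicle replicate 9.

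Gpr6, an orphan receptor that raises cyclic AMP without a bound ligand, had the clearest shift between groups, though the groups still overlapped. Its lowest, median and highest TPM were 0.341, 0.588 and 0.779 in WT vehicle and 0.494, 0.910 and 1.70 in Brd1+/- vehicle without replicate 6. They were 0.516, 0.729 and 1.52 in WT IMN and 0.593, 0.937 and 2.51 in Brd1+/- IMN. Under vehicle 6 of the 8 Brd1+/- libraries were above the highest WT library.

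Adora2a, the receptor through which adenosine opposes D2 signals, had its lowest, median and highest TPM at 0.799, 1.13 and 1.86 in WT vehicle and at 0.975, 1.44 and 2.25 in Brd1+/- vehicle without replicate 6. In WT IMN they were 0.957, 1.28 and 1.82, and in Brd1+/- IMN 1.01, 1.56 and 2.09. The medians of both Brd1+/- groups were above those of both WT groups, within ranges that overlapped.

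Among the signalling genes, group medians were close. Rgs9 had medians of 8.26 TPM in WT vehicle, 8.97 TPM in Brd1+/- vehicle without replicate 6, 10.0 TPM in WT IMN and 7.61 TPM in Brd1+/- IMN. Ppp1r1b had 62.7, 69.3, 65.6 and 57.5 TPM in the same order, Pde10a 18.7, 18.7, 18.9 and 17.4 TPM, and Rasd2 41.3, 36.9, 39.6 and 39.3 TPM. Syndig1l had 1.34, 1.44, 1.57 and 0.908 TPM, so that its lowest median was in Brd1+/- IMN, where the highest library still reached 2.59 TPM.

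**Figure D1:**
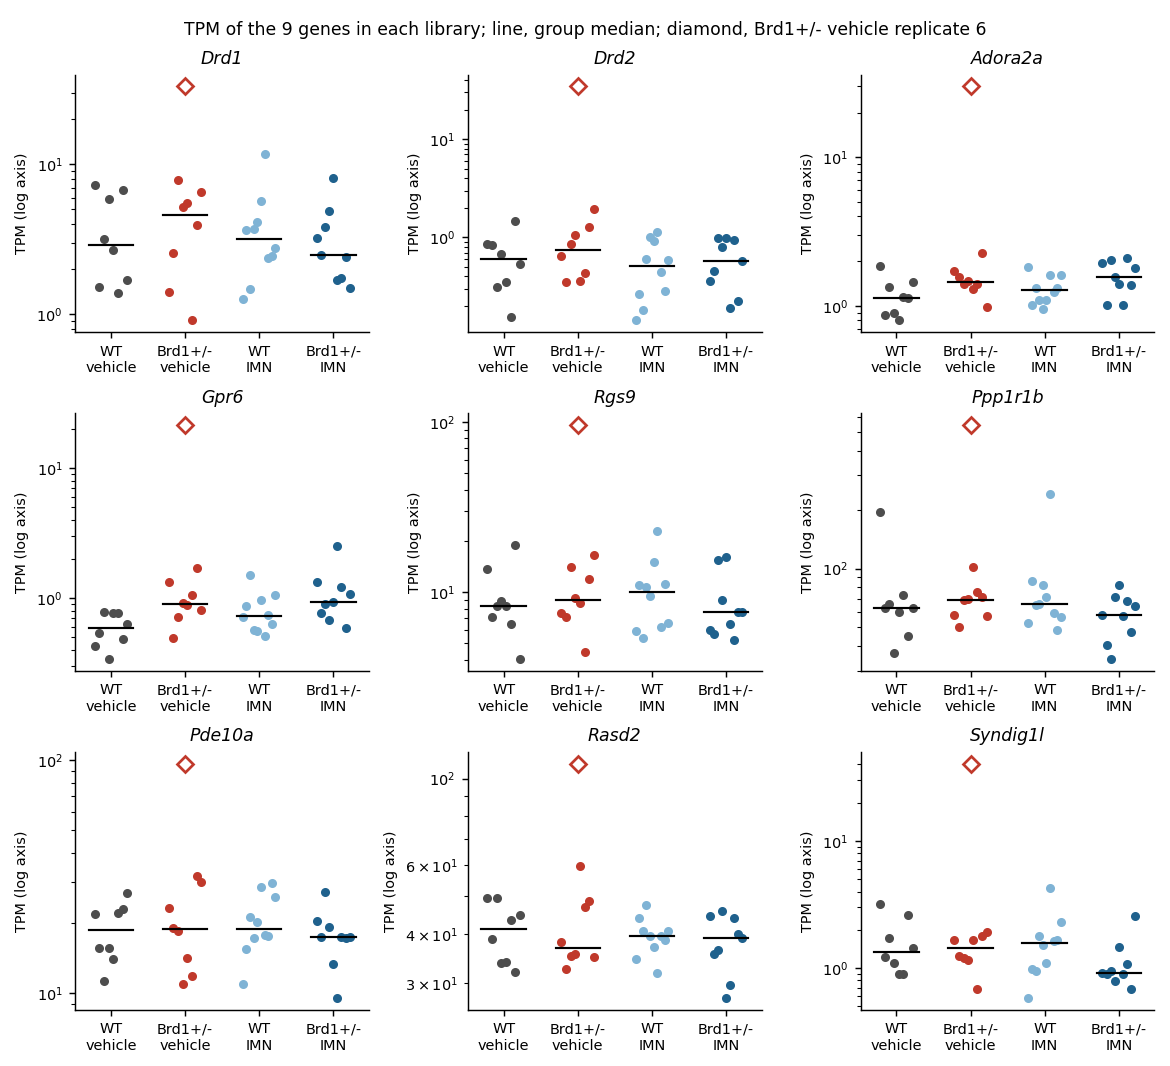
TPM of the 9 genes on a log axis, with 1 point per library in the 4 groups, a line at the median of each group without Brd1+/- vehicle replicate 6, and that library as an open diamond. The diamond lies above every other point in each panel, and the remaining points of the 4 groups overlap; Drd2 is at 34.7 TPM in the diamond and at no more than 1.96 TPM elsewhere.

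The group comparisons asked whether a reduced dose of Brd1 or treatment with IMN moved these genes. None of the 9 passed an adjusted p of 0.05 in any of the 7 comparisons (limma on log2(TPM + 0.5), two-sided, Benjamini-Hochberg over 25572 genes), and the lowest adjusted p of a member was 0.703. Few genes of the whole table passed either, so the count says little about the 9 in particular. At an unadjusted p under 0.05, 1 of the 9 was called in the vehicle comparison and 2 in the comparison of genotypes over both treatments, and 0 in the other 5. All log2 differences below are on the log2(TPM + 0.5) scale, which understates the change of genes near 1 TPM such as Drd2 and Gpr6.

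Between Brd1+/- and WT mice under vehicle, 0.00782% of all genes passed the adjusted threshold and 3.86% the unadjusted one. Gpr6 was 0.42 higher in Brd1+/- mice (SE 0.152, 95% interval 0.10 to 0.75, unadjusted p = 0.0125, adjusted p = 0.998). Adora2a differed by 0.26 (interval -0.05 to 0.57), Drd2 by 0.23 (-0.29 to 0.75) and Drd1 by 0.14 (-0.72 to 0.99). The intervals of Drd1 and Drd2 are wide and hold 0, so that neither a difference nor its absence was shown for the dopamine receptors.
The genes for signalling proteins were closer to 0, at 0.10 for Rgs9 (-0.48 to 0.69), 0.03 for Ppp1r1b (-0.49 to 0.55), 0.04 for Pde10a (-0.44 to 0.52) and 0.02 for Rasd2 (-0.26 to 0.29), and Syndig1l differed by -0.11 (-0.55 to 0.34). The median over the 9 was 0.10, and over all genes tested -0.03.

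This comparison depended on the library that was left out. With Brd1+/- vehicle replicate 6 put back, the difference of Drd2 was 0.76 (SE 0.565, interval -0.42 to 1.95), that of Gpr6 0.86 (SE 0.444) and that of Syndig1l 0.39 (SE 0.518), and the median over the 9 was 0.47. The differences grew and so did their errors, so that 0 of the 9 reached even an unadjusted p of 0.05, where 3.75% of all genes did. The levels of that library chose the 9 genes, so the values with it are a description.

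Between Brd1+/- and WT mice under IMN, 0% of all genes passed the adjusted threshold and 3.23% the unadjusted one, and 0 of the 9 did at either. The median over the 9 was -0.14, with 3 above 0 (Gpr6, Adora2a and Drd2) and 6 below, beside a median of 0.01 over all genes.

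With both treatments in 1 model, genotype was estimated with the narrowest intervals. At the adjusted threshold 0.00391% of all genes passed and at the unadjusted one 3.65%. Gpr6 was 0.34 higher in Brd1+/- mice (SE 0.114, interval 0.10 to 0.57, unadjusted p = 0.00573, rank 104 of 25572) and Adora2a 0.22 higher (SE 0.0923, interval 0.03 to 0.41, unadjusted p = 0.0217), both with an adjusted p of 1.00. In the striatum both are receptor genes of the indirect pathway, as is Drd2, which differed by 0.15 (interval -0.17 to 0.48). A shift of these receptor genes as a set was not tested.
Drd1 differed by -0.02 (-0.55 to 0.52), Rgs9 by -0.06 (-0.46 to 0.33), Ppp1r1b by -0.19 (-0.55 to 0.17), Pde10a by -0.09 (-0.39 to 0.21), Rasd2 by -0.02 (-0.19 to 0.14) and Syndig1l by -0.24 (-0.56 to 0.08). The median over the 9 was -0.02, against -0.01 over all genes.

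Treatment with IMN left 0 of the 9 past either threshold. Within Brd1+/- mice, where 0.00391% of all genes passed the adjusted threshold and 5.72% the unadjusted one, Drd2 differed by -0.26 (interval -0.73 to 0.22), Drd1 by -0.25 (-1.01 to 0.51), Gpr6 by 0.09 (-0.31 to 0.48) and Adora2a by 0.04 (-0.25 to 0.34). With replicate 6 of the vehicle group put back, the Drd2 difference was -0.79 (interval -1.90 to 0.32) and the Drd1 difference -0.59 (-1.56 to 0.38), while Gpr6 and Adora2a turned to -0.35 and -0.39. Within WT mice the median over the 9 was 0.11, with 0% and 6.6% of all genes past the 2 thresholds.

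Over both genotypes 0.285% of all genes passed the adjusted threshold for IMN and 9.45% the unadjusted one. The 9 genes stayed between -0.19 for Drd2 (interval -0.51 to 0.14) and 0.17 for Gpr6 (-0.06 to 0.40). Drd1 differed by -0.11 (-0.64 to 0.43), Adora2a by 0.08 (-0.11 to 0.27), Rgs9 by -0.02 (-0.42 to 0.37), Ppp1r1b by -0.06 (-0.42 to 0.31), Pde10a by 0.00 (-0.30 to 0.30), Rasd2 by -0.07 (-0.23 to 0.09) and Syndig1l by -0.12 (-0.45 to 0.20). The interval of Rasd2 was the narrowest of the 9, and that of Drd1 the widest. The interaction of genotype and IMN passed no threshold for any of the 9, with 0% and 3.25% of all genes past the 2 thresholds, and its median was -0.24 over the 9 and 0.03 over all genes. The comparisons share groups, so their values are not independent of each other.

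**Figure D2:**
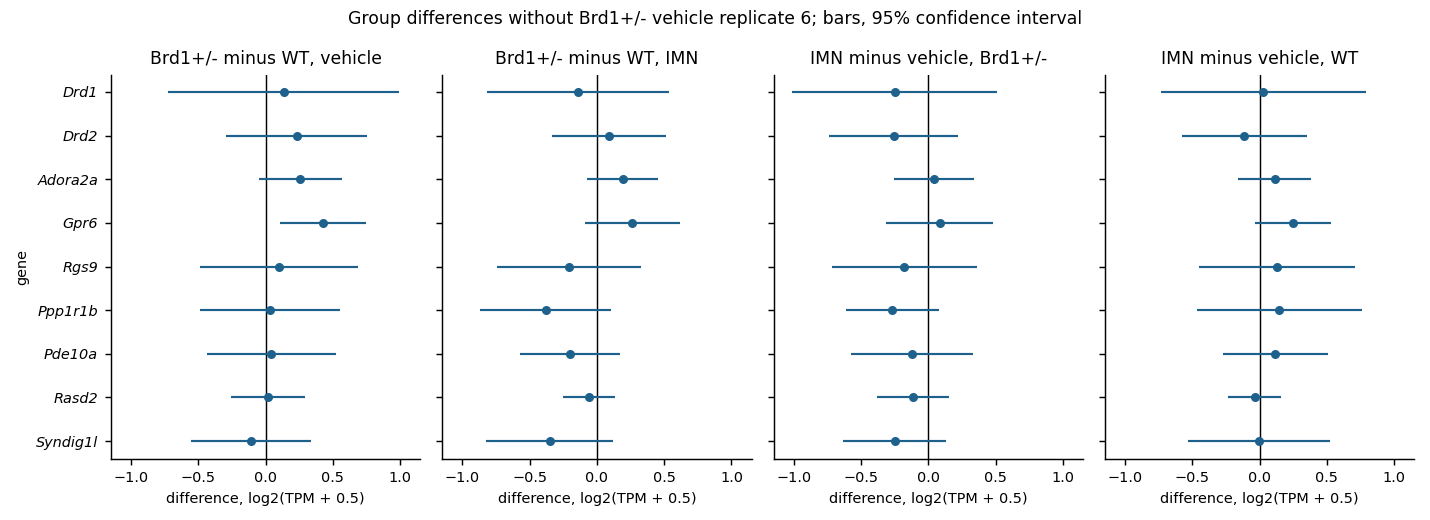
Differences in log2(TPM + 0.5) for the 9 genes without Brd1+/- vehicle replicate 6, with 1 panel each for genotype under vehicle, genotype under IMN, IMN in Brd1+/- and IMN in WT; the comparisons over both treatments or both genotypes are not drawn. Points are the estimates, bars the 95% confidence intervals and the vertical line 0; the interval of Gpr6 under vehicle, 0.10 to 0.75, lies to the right of 0, and the other intervals drawn cross it.

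None of the genes of the related lists passed the adjusted threshold either, in any comparison. The lists were the other dopamine receptors (3 genes), dopamine synthesis, transport and breakdown (7), striatal G protein and cAMP signalling (11), other markers of striatal projection neurons (17, of which 16 were in the table), cholinergic neurons (3) and 10 lists of cortical, glial, vascular, blood and choroid plexus markers. At an unadjusted p under 0.05, IMN over both genotypes had 3 lower and 0 higher among the 11 genes for G protein and cAMP signalling, with a list median of -0.10, and 1 higher and 1 lower among the 6 tested genes of dopamine synthesis, transport and breakdown, beside 9.45% of all genes tested in either direction. Genotype over both treatments had 0 in either direction in both lists, beside 3.65% of all genes tested.

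Brd1+/- vehicle replicate 6 was above the highest of the other 35 libraries for each of the 9 genes, which is the property they were chosen for. Drd2 stood at 34.7 TPM in it, 59.2 times the median of the other 35 and 17.7 times their highest value. Syndig1l stood at 40.4 TPM (33.1 times the median), Gpr6 at 21.4 TPM (27.5 times) and Adora2a at 30.1 TPM (21.9 times). The 3 receptor genes of the indirect pathway were thus among the 4 genes with the largest ratios.
Rgs9 stood at 95.7 TPM (11.6 times the median), Drd1 at 33.2 TPM (10.5 times), Ppp1r1b at 543 TPM (8.44 times), Pde10a at 96.2 TPM (5.44 times) and Rasd2 at 109 TPM (2.77 times). On the log2 scale the differences ran from 1.46 for Rasd2 to 5.02 for Drd2, with a median of 3.46, and the median over all genes tested was 0.05.
Just inside the choice, Rasd2 exceeded the highest of the other 35 libraries by 1.82 times and Ppp1r1b by 2.26 times. Of the related genes that were not chosen, Foxp2 at 13.1 TPM and Scn4b at 63.3 TPM lay within the range of the other 35, which reached 18.5 and 86.8 TPM.

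The proportions of the 9 genes differed as well. In the other 35 libraries Ppp1r1b made up a median of 46.3% of the summed TPM of the 9, Rasd2 29.1%, Drd1 2.24% and Drd2 0.403%. In replicate 6 the sum was 1004 TPM, against 104 to 332 TPM elsewhere, and the shares were 54.1% for Ppp1r1b, 10.8% for Rasd2, 3.31% for Drd1 and 3.45% for Drd2. The level of Drd2 was therefore above that of Drd1 in replicate 6, at 34.7 and 33.2 TPM, while at the medians of the other libraries Drd1 was the higher.

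Counted over the table, 5.87% of the genes tested (1501) were higher in replicate 6 than in all other libraries. Such a count alone does not set it apart, since the number of genes with their highest value in a given library ran from 212 to 2175 over the other 35, with the most in WT vehicle replicate 7. It was at least 2-fold over the median of the other 35 in 3.92% of genes.

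Other markers moved with the 9 in that library. Of the 16 other markers of striatal projection neurons, 13 were above the range of the other 35, with a summed level of 981 TPM against 186 to 271 TPM. Penk, the enkephalin precursor of the indirect pathway, was at 419 TPM against at most 84.3 TPM. Tac1, the substance P precursor of the direct pathway, was at 104 TPM against at most 45.6 TPM.
Defining transcription factors of these neurons were near absent elsewhere: Isl1 was at 5.95 TPM in replicate 6 and at 0 in 32 of the other 35, with a highest value of 0.157 TPM, and Six3 was at 8.66 TPM against at most 0.220 TPM. Sh3rf2 was at 5.35 TPM against at most 0.342 TPM. Further markers above the range included Meis2 (126 TPM), Pdyn (37.1 TPM), Lrrc10b (34.97 TPM), Rxrg (17.9 TPM), Rarb (15.7 TPM), Ido1 (3.84 TPM) and Zfp503 (2.81 TPM), and Ebf1 was within it.

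Of the 11 genes for striatal G protein and cAMP signalling, 7 were above the range. Gng7, the G protein gamma subunit of striatal neurons, was at 138 TPM against at most 66.9 TPM, Adcy5, the adenylyl cyclase of the striatum, at 84.2 TPM against 44.8 TPM, and Pde1b, a phosphodiesterase, at 198 TPM against 93.8 TPM. Gnal (108 TPM), Arpp21 (527 TPM), Ptpn5 (234 TPM) and Gnb5 (155 TPM) exceeded their highest values by less than 1.3 times. The summed level of the 11 was 2035 TPM, against 1013 to 1603 TPM.
Among the other dopamine genes, the receptor gene Drd3 was at 0.102 TPM against at most 0.0715 TPM, and the vesicular monoamine transporter gene Slc18a2 at 5.28 TPM against at most 3.98 TPM. The cholinergic genes Chat (1.02 TPM) and Slc5a7 (0.967 TPM) and the interneuron gene Gad2 (87.2 TPM) were above the range too. Drd5 and Drd4 were within it.

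Genes of the choroid plexus, the tissue that makes cerebrospinal fluid in the ventricles, were high in the same library. All 5 markers were above the range, with a summed level of 3897 TPM against 0.400 to 40.0 TPM. Ttr, which encodes transthyretin, was at 3806 TPM against at most 38.5 TPM and was listed at 0 in 18 of the other 35. Folr1 was at 32.5 TPM, Kl at 24.7 TPM, Clic6 at 20.1 TPM and Kcne2 at 13.2 TPM, and no other library exceeded 1.96 TPM for any of these.
Cortical markers were not below the range in replicate 6: of the 6 genes for cortical excitatory neurons, 4 of upper layers, 6 of layer 6, 6 of oligodendrocytes, 4 of astrocytes, 4 of microglia, 3 of endothelium and 4 of blood, 0 were outside it in either direction. Their median differences ran from -0.34 (upper layers) to 1.55 (oligodendrocytes), and that of layer 6 was 1.25. Of the layer 6 genes, Syt6 was at 22.8 TPM, against a median of 3.03 TPM and at most 24.0 TPM in the other 35. The part of these other markers in the levels of the 9 genes was not tested.

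**Figure D3:**
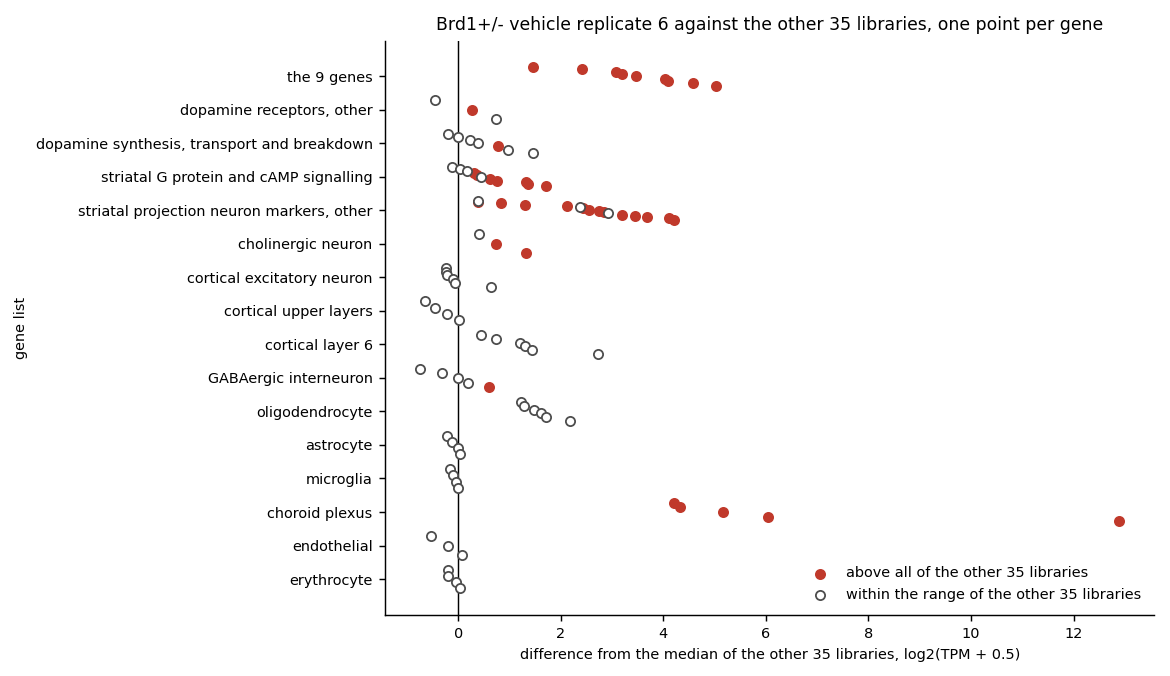
Difference of Brd1+/- vehicle replicate 6 from the median of the other 35 libraries in log2(TPM + 0.5), with 1 point per gene, grouped by list. Filled points lie above all of the other 35 libraries. Filled are all 9 of the genes described, 13 of 16 other striatal markers, 7 of 11 signalling genes and all 5 choroid plexus markers. Drd3, Slc18a2, Chat, Slc5a7 and Gad2 are filled as well. Ttr lies farthest out at 12.89, and 0 of the points of the layer, excitatory neuron and glial lists are filled.

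Among the genes that passed the filter on low values, leaving out the 9, those furthest above the median of the other libraries in replicate 6 on the log2 scale were Ttr (12.89), Tuba1c (8.79), Gm38182 (7.68), Gm21887 (7.13), 1500015O10Rik (5.73), Pcdhgb1 (5.49), Clic6 (5.17), Kcnj13 (5.03), Gm21742 (4.75) and Prlr (4.68). Folr1, which did not pass the filter, was 6.04 above the median. Ttr, Clic6, Kcnj13, Prlr and Folr1 are genes known from the choroid plexus. Tuba1c, Gm21887, Pcdhgb1 and Gm21742 reached higher values in at least 1 of the other 35 libraries, for example 226 TPM for Tuba1c. The median of the 35 was 0 for Tuba1c, Gm21887 and Gm21742 and 2.46 TPM for Pcdhgb1. Tuba1c and Pcdhgb1 can share reads with similar or overlapping genes, so their values are uncertain.

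Over the 35 libraries the 9 genes did not vary as 1 block. The points share a library in each pair of values, TPM are shares of the same total, and no p is given, since co-variation was part of the choice. Over the 36 pairs, Pearson's r of log2(TPM + 0.5) ran from -0.37 to 0.84 with a median of 0.16, and 12 pairs were below 0. Of the pairs, 13.9% (5) had an r of at least 0.5, against 2.4% of the pairs of a member with another gene tested, whose median r was 0.05. Without the 2 libraries farthest from the median of the first gene of each pair, 3 pairs had an r of at least 0.5.

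Drd1, Drd2 and Rgs9 varied together. The r of Drd1 and Rgs9 was 0.84 (Spearman's rho 0.83, n = 35), 0.80 without the 2 libraries farthest from the median of Drd1 and 0.85 after centring each group on its mean. Drd2 had an r of 0.63 with Drd1 (rho 0.67, 0.61 without the 2 farthest) and 0.64 with Rgs9 (rho 0.63, 0.56 without the 2 farthest). Libraries with much Drd1, such as WT IMN replicate 7 (11.7 TPM), Brd1+/- IMN replicate 5 (8.06 TPM) and WT vehicle replicate 1 (7.30 TPM), thus also had much Rgs9 (22.7, 16.2 and 13.6 TPM).
These are the genes whose start-site windows are printed first above.

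Syndig1l had an r of 0.52 with Rgs9 (rho 0.50), 0.50 with Drd2 (rho 0.51), 0.48 with Drd1 (rho 0.43) and 0.52 with Ppp1r1b. Without the 2 libraries farthest from the median of the other gene, the r was 0.34 with Rgs9, 0.43 with Drd2 and 0.31 with Drd1. The r with Ppp1r1b rests on few libraries: its rho was 0.18, and without WT vehicle replicate 1 and WT IMN replicate 7 its r was 0.08. The r of Drd1 and Ppp1r1b, 0.39, likewise was 0.07 without those 2 libraries.

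The other receptor genes, Gpr6 and Adora2a, did not share this pattern. Gpr6 had an r of -0.37 with Drd1 (rho -0.32), -0.28 with Rgs9, -0.17 with Drd2 and 0.28 with Adora2a. Adora2a had an r of -0.05 with Drd1 and 0.10 with Drd2. Adora2a and Drd2 sit in the same neurons in the striatum, but both were low here. Adora2a had an r of at least 0.5 with 0.0509% of the other genes tested, Gpr6 with 0.462% and Drd1 with 5.90%. A low r of Adora2a with Drd2 therefore says little. Pde10a reached 0.39 with Drd2, and Rasd2 stayed between -0.31 (with Rgs9) and 0.26 (with Ppp1r1b). With Brd1+/- vehicle replicate 6 added, each of the 36 values was positive, from 0.31 to 0.89 with a median of 0.65. That library alone thus moved the median from 0.16.

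**Figure D4:**
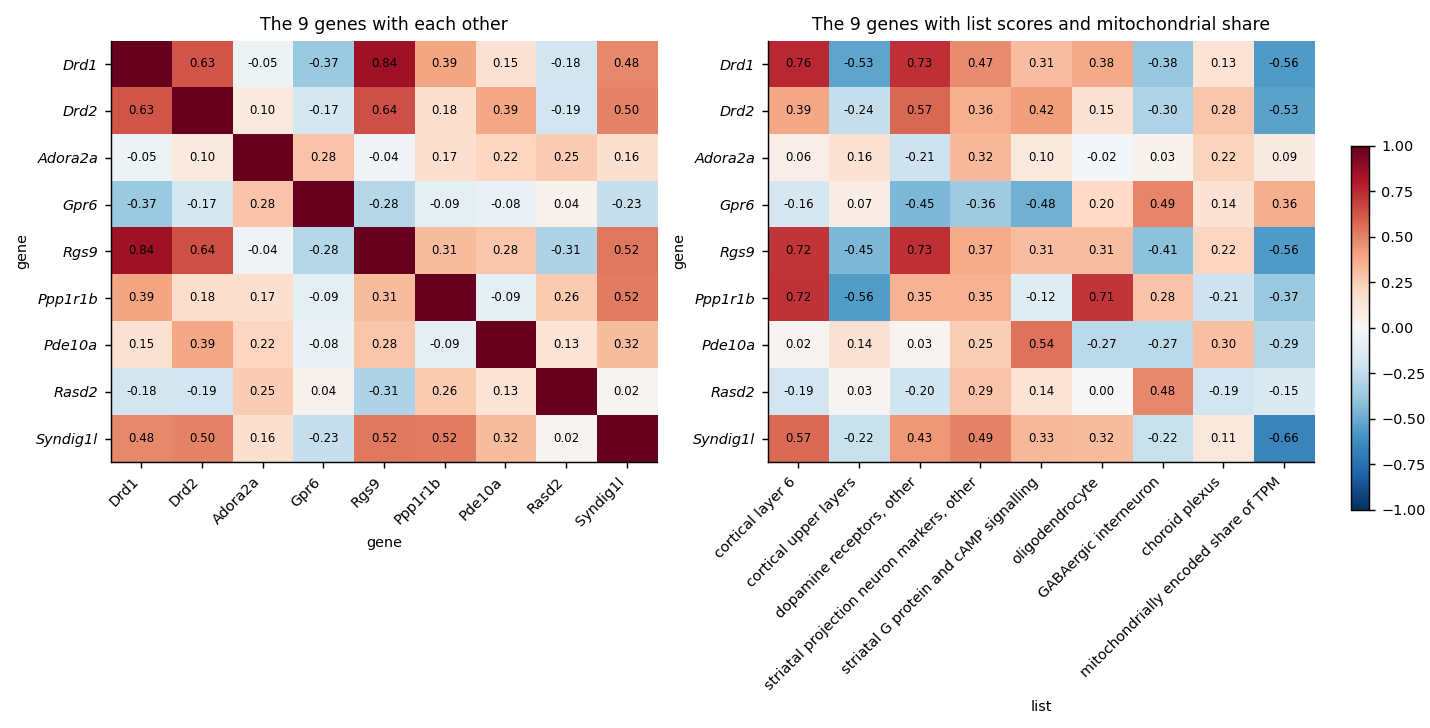
Pearson's r over the 35 libraries left without Brd1+/- vehicle replicate 6, on log2(TPM + 0.5). The left panel shows the 9 genes with each other. There Drd1, Drd2 and Rgs9 reach 0.63 to 0.84, and Adora2a, Gpr6 and Rasd2 stay low or negative. The right panel shows the same genes with the means of some marker lists and with the share of TPM from mitochondrially encoded genes. The lists for dopamine synthesis, transport and breakdown, cholinergic neurons, excitatory neurons, astrocytes, microglia, endothelium and blood are not drawn.

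The same genes followed cortical layer markers, among other scores given below. The layer 6 score, the mean log2(TPM + 0.5) of Tle4, Syt6, Ntsr1, Ctgf, Nxph4 and Cplx3, had an r of 0.76 with Drd1, 0.72 with Rgs9, 0.72 with Ppp1r1b, 0.57 with Syndig1l and 0.39 with Drd2 over the 35 libraries. The r with Adora2a was 0.06, with Pde10a 0.02, with Gpr6 -0.16 and with Rasd2 -0.19. Without the 2 libraries farthest from the median score, WT IMN replicate 7 and WT vehicle replicate 1, the r was 0.73 for Drd1 and 0.68 for Rgs9, but 0.27 for Ppp1r1b and 0.18 for Syndig1l.
The score of upper-layer genes went the other way, with an r of -0.53 with Drd1, -0.45 with Rgs9 and -0.56 with Ppp1r1b.

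The score of the other markers of striatal projection neurons had an r of 0.49 with Syndig1l, 0.47 with Drd1, 0.37 with Rgs9, 0.36 with Drd2, 0.35 with Ppp1r1b, 0.32 with Adora2a, 0.29 with Rasd2, 0.25 with Pde10a and -0.36 with Gpr6 over the 35 libraries. Without the 2 libraries farthest from the median score, Brd1+/- IMN replicate 6 and Brd1+/- vehicle replicate 7, the r was 0.52 for Syndig1l, 0.49 for Ppp1r1b, 0.43 for Drd1, 0.33 for Rgs9, 0.31 for Adora2a, 0.26 for Drd2, 0.22 for Rasd2, -0.13 for Pde10a and 0.10 for Gpr6. The negative r of Gpr6 and the positive r of Pde10a thus rest on those 2 libraries. With each score's own 2 farthest libraries left out, Drd1, Rgs9 and Drd2 had a higher r with layer 6 than with these projection neuron markers. Syndig1l, Ppp1r1b, Adora2a and Rasd2 had a higher r with the projection neuron markers. The score of striatal G protein and cAMP signalling had an r of 0.54 with Pde10a, 0.42 with Drd2 and -0.48 with Gpr6. Without its own 2 farthest libraries these were 0.36, 0.36 and -0.17, and the r was 0.11 for Drd1 and 0.18 for Rgs9. Drd2 thus had a higher r with this signalling score than with layer 6 (0.34). The projection neuron score used the 14 genes of its list that passed the filter on low values, which Isl1 and Sh3rf2 did not. It includes Foxp2, which layer 6 neurons express as well. What these r values reflect was not tested. The other dopamine receptors, of which Drd4 and Drd5 passed the filter, had an r of 0.73 with Drd1 and with Rgs9 and 0.57 with Drd2. The score of dopamine synthesis, transport and breakdown had an r of 0.74 with Drd1, 0.64 with Rgs9 and 0.62 with Ppp1r1b. It had 0.44 with Syndig1l and 0.37 with Drd2, and -0.24 with Rasd2. Without its own 2 farthest libraries the r was 0.66 for Drd1, 0.49 for Rgs9 and 0.37 for Ppp1r1b. Choroid plexus markers had an r of 0.13 with Drd1 and 0.28 with Drd2.

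Other measures moved with some of the genes. The oligodendrocyte score had an r of 0.71 with Ppp1r1b (0.75 without the 2 libraries farthest from its median), 0.38 with Drd1 and 0.15 with Drd2. The share of TPM from mitochondrially encoded genes, which ran from 21.7% to 30.5%, had an r of -0.66 with Syndig1l, -0.56 with Drd1 and with Rgs9 and -0.53 with Drd2. Their part in the levels of the 9 genes was not tested.

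Brd1+/- vehicle replicate 6, left out of the 35, had a layer 6 score of 3.49. Among the 35 the score was highest in WT vehicle replicate 1 (4.17) and WT IMN replicate 7 (4.95). The r of Ppp1r1b with the score rests largely on those WT libraries, at 0.72 with them and 0.27 without them. Ppp1r1b was at 194 and 240.2 TPM in them, and at no more than 102 TPM in the other 33 libraries. Syt6 was at 21.5 and 24.0 TPM (median of the 35, 3.03 TPM), Tle4 at 40.6 and 53.3 TPM (median 11.97 TPM) and Mobp, of myelin, at 790 and 921 TPM (median 100.1 TPM). The upper-layer gene Cux2 was at 9.86 and 34.5 TPM (median 84.2 TPM). Unlike Brd1+/- vehicle replicate 6, these libraries had Isl1 at 0, Six3 at 0.0287 and 0.0556 TPM, and Ttr at 1.08 and 0.840 TPM, and their Adora2a (1.86 and 1.62 TPM) and Drd2 (0.854 and 1.12 TPM) lay within the range of the others.

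**Figure D5:**
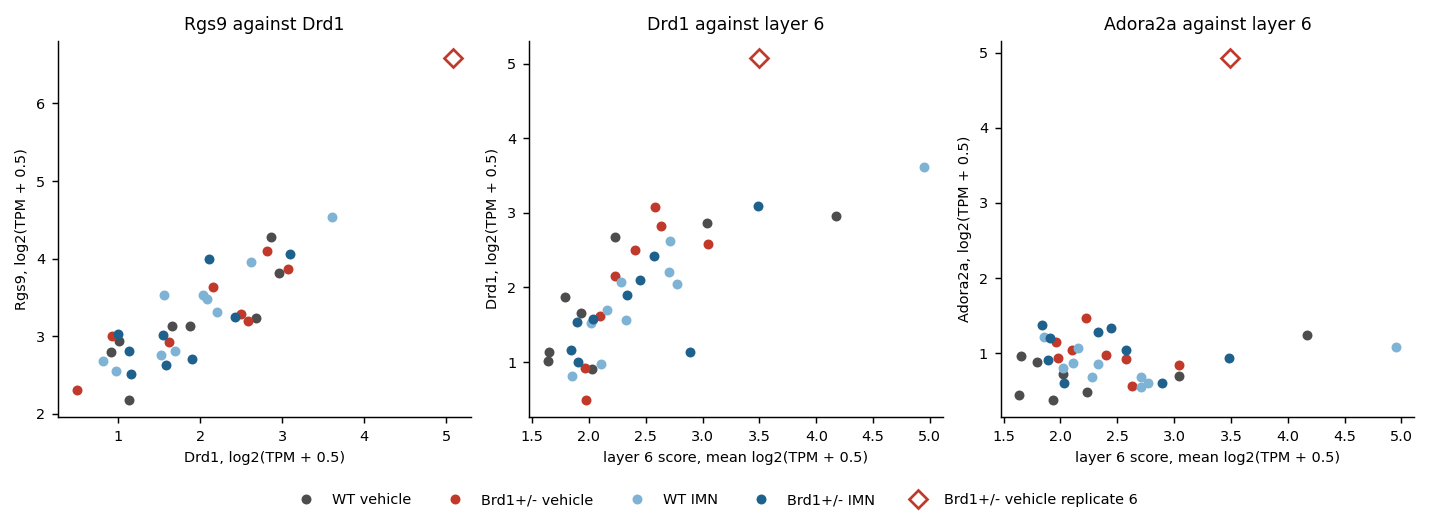
Values of log2(TPM + 0.5) in each library: Rgs9 against Drd1, and Drd1 and Adora2a against the layer 6 score, coloured by group, with Brd1+/- vehicle replicate 6 as an open diamond. Rgs9 rises with Drd1 (r = 0.84 over the 35) and Drd1 with the layer 6 score (0.76), Adora2a has an r of 0.06 with the score, and the diamond lies far above the other points for Adora2a.

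The genes outside the 9 whose pattern was most like that of Drd1, among the 17695 genes whose mean reached 1 TPM, were Spon1 (r = 0.92), Grik3 (0.90) and Igsf21 (0.90). They kept an r of 0.91, 0.88 and 0.87 without the 2 libraries farthest from the median of Drd1, and all 3 had more transcripts than Drd1, with medians of 15.9, 20.8 and 43.6 TPM. In Brd1+/- vehicle replicate 6 they were at 29.5, 35.6 and 63.5 TPM, within the range of the other 35 libraries, where Drd1 was not.
The genes most like Drd2 were Sdk2 (r = 0.68), Txndc11 (0.67) and Gins4 (0.66), a looser likeness than for Drd1. The genes most like the mean z-score of all 9 were Ptk2 (0.78), Nptx1 (0.74), Arhgap44 (0.74), Tnfrsf21 (0.73), Ipcef1 (0.73), Prrt3 (0.72), Gtf3c1 (0.72) and Lrrtm2 (0.71), and in replicate 6 these too were within the range of the other 35.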

How the data were processed

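RNA from aCC punches of 36 mice was sequenced on BGISEQ-500. Reads were trimmed with Trimmomatic, aligned to GRCm38 with HISAT2 2.1.0 and quantified with StringTie 1.3.4, per the submitters' notes. The authors deposited TPM per gene and library (column totals 999727 to 999889), which keep no depth. Strand use and the handling of shared reads are not given in the sources used here. Columns were matched to samples by title, with 0 unmatched. Genes that reached 0.1 TPM in 8 or more of the 36 libraries were fitted on log2(TPM + 0.5) with limma 3.58.1 (R 4.3.3, empirical Bayes with trend), without Brd1+/- vehicle replicate 6. The fit was tested on simulated data. Group comparisons used the libraries of both groups, and the interaction and the 2 additive models all 35. Correlations used pandas 2.3.3 in Python 3.11.15, and figures matplotlib 3.10.9.

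The 9 genes, the marker lists and the tests were chosen with earlier results of these data known. Named beside the 9 were Brd1, list genes that passed a threshold or lay outside the range of the 35, the genes most alike and the 10 genes highest in replicate 6 by log2 difference. Examples from the lists that lay within the range, and the values of WT vehicle replicate 1 and WT IMN replicate 7, were chosen after their values were seen. Gpr52 was not analysed here. The values of 1 other list gene are not reported here. Start-site windows of 6 of the 9 genes were in the RefSeq table.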

Additional observations from a re-analysis of the deposited data

Results flagged for a closer look

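In 8 of the 9 genes the Brd1+/- vehicle group held a library whose gap to the nearest other library was large against the range of the group (a ratio over Dixon's 95% critical value on log2(TPM + 0.5), 36 groups of values examined), and in each it was replicate 6. Its levels were 34.7 TPM for Drd2, 30.1 TPM for Adora2a, 21.4 TPM for Gpr6, 95.7 TPM for Rgs9, 543 TPM for Ppp1r1b, 96.2 TPM for Pde10a, 109 TPM for Rasd2 and 40.4 TPM for Syndig1l. The genes were chosen for their high levels in that library, so the 8 ratios describe the choice and are no test, and the 8 values are 1 library seen through 8 genes. For Drd1 the gap was not large enough against the spread of the group. A further 2 values stood apart in the same sense, both of Ppp1r1b: 194 TPM in WT vehicle replicate 1 and 240.2 TPM in WT IMN replicate 7. Chance flags about 1 in 20 groups.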

How the results depend on the processing

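No member passed the adjusted threshold in any of the 233 alternative fits of the 7 comparisons, where the lowest adjusted p of a member was 0.576. TPM keep no depth, and the low levels of Drd2 and Gpr6 limit what their values can show; with a minimum mean of 1 TPM, Drd2 (4 comparisons) and Gpr6 (3) had no value. The median r of the 36 pairs was 0.65 with replicate 6 of Brd1+/- vehicle and 0.070 without WT vehicle replicate 1 and WT IMN replicate 7, a setting chosen after seeing the data, and 0.13 to 0.20 on leaving out 1 library each. The replicate numbers did not pair the samples: only 1 of 35 libraries correlated best, outside its own group, with its own number. A replicate block called 0 members.

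All 17 reversals of a member's log2 difference outside leave-one-out were of differences within their error, and the cause was not tested. With replicate 6 of Brd1+/- vehicle, genotype over both treatments gave 0.15 for Drd1, 0.11 for Rgs9, 0.038 for Pde10a and 0.050 for Rasd2, IMN over both genotypes -0.14 for Adora2a and -0.052 for Gpr6, the vehicle comparison 0.39 for Syndig1l, and IMN within Brd1+/- -0.39 for Adora2a and -0.35 for Gpr6. The replicate block gave -0.12 for Drd1, -0.0093 for Drd2, -0.069 for Rgs9 and -0.014 for Pde10a under vehicle and -0.034 for Gpr6 for IMN within Brd1+/-. Pde10a for IMN over both genotypes was 0.00017 with a pseudocount of 0.1 and 0.00089 with median-ratio scaling, and Adora2a for IMN within Brd1+/- was -0.013 with quantile normalization.
On leaving out 1 library each, 14 of the 31 differences changed sign. For genotype over both treatments Drd1 ran from -0.099 to 0.088, Rgs9 from -0.13 to 0.011 and Rasd2 from -0.061 to 0.0055. For IMN over both genotypes Rgs9 ran from -0.098 to 0.049, Ppp1r1b from -0.16 to 0.045 and Pde10a from -0.051 to 0.055. Under vehicle Drd1 ran from -0.015 to 0.35, Rgs9 from -0.042 to 0.26, Ppp1r1b from -0.088 to 0.25, Pde10a from -0.068 to 0.15, Rasd2 from -0.063 to 0.060 and Syndig1l from -0.18 to 0.019. For IMN within Brd1+/- Adora2a ran from -0.017 to 0.11 and Gpr6 from -0.034 to 0.17.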
